A study of Homo sapiens with 6 samples.

Results

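The vault RNAs VTRNA1-1, VTRNA1-2, VTRNA1-3 and VTRNA2-1 and the vault particle proteins MVP, TEP1 and PARP4 were examined in RNA-seq of human HEK293T-Rex cells. Every transcript whose gene identifier maps to one of these symbols was taken, which gave 36 transcripts of 7 genes among 207167 transcripts of 63190 genes. There were 4 vault RNA transcripts, 18 of MVP, 11 of TEP1 and 3 of PARP4. The RNA-seq compared 3 libraries of cells expressing D391N with 3 libraries of control cells. D391N is DIS3L2, a 3′ to 5′ exoribonuclease of uridylated RNAs, with a substitution in its catalytic site. HEK293T-Rex FlipIn cells are a human embryonic kidney line with the tetracycline repressor, named HEK293 in the sample labels, in which doxycycline switches on the stably integrated construct. Whether the control cells also received doxycycline is not stated. All D391N libraries came from 1 line and all controls from another, so the construct and the line cannot be told apart. Libraries were run 3 to a lane, and which of them shared a lane is not stated. The replicates are not said to be separate cultures, and the p-values measure the spread between these libraries, which may be technical.

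Vaults are large hollow ribonucleoprotein particles of the cytoplasm. Their shell is built of many copies of MVP, the major vault protein, and holds the poly(ADP-ribose) polymerase PARP4, the RNA-binding protein TEP1 and the vault RNAs. Vault RNAs are short transcripts of RNA polymerase III, whose promoter elements, box A and box B, lie within the transcribed sequence. Most vault RNA in a cell is outside the particles, and roles of the free RNA in autophagy and in control of the kinase PKR are known. VTRNA2-1, also called nc886, lies apart from the VTRNA1 cluster, and its promoter is methylated on one or both alleles in many cells.

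The 4 vault RNA sequences are shown because they decide which reads can be told apart and share the internal promoter. They are GENCODE transcripts on GRCh37, written 5′ to 3′ as DNA, and the capitals mark the box A core (TAGCTCA) and the box B core (GTTCGANNC).
VTRNA1-1: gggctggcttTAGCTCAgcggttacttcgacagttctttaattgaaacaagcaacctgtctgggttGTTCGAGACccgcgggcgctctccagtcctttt
VTRNA1-2: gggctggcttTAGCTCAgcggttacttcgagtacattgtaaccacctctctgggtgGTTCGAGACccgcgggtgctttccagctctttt
VTRNA1-3: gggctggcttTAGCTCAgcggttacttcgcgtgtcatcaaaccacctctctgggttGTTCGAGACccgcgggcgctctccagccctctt
VTRNA2-1: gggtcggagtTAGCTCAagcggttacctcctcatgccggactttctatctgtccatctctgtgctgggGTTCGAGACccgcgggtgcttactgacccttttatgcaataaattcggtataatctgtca

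VTRNA1-1 (ENST00000363120) is 99 nt long and lies at chr5:140090860-140090958 on the + strand. VTRNA1-2 (ENST00000365241) lies at chr5:140098510-140098598 and VTRNA1-3 (ENST00000365645) at chr5:140105743-140105831, each 89 nt long and on the same strand. VTRNA2-1 (ENST00000602301) is 128 nt long and lies at chr5:135416159-135416286 on the - strand. The box A core began at base 11 in all 4 RNAs, and the box B core ended at base 75 in VTRNA1-1, base 65 in VTRNA1-2 and VTRNA1-3 and base 77 in VTRNA2-1. Neither core was found on the opposite strand of any of them. Of 6451 annotated transcripts of 80 to 130 nt, 1.09% held the box A core on either strand and 0.310% the box B core. The 10 extra bases of VTRNA1-1 relative to VTRNA1-2 lie between the 2 boxes.

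The VTRNA1 paralogs are close to each other and distant from VTRNA2-1. Over aligned positions, VTRNA1-2 and VTRNA1-3 were 86.5% identical, VTRNA1-1 and VTRNA1-3 82.8% and VTRNA1-1 and VTRNA1-2 81.8%, while VTRNA2-1 was 55.7% to 57.8% identical to each of them. The longest stretch shared by any pair was 34 bases, so no stretch of 50 bases, the read length, occurs in 2 vault RNAs. All 50-base stretches of VTRNA1-1 also occur in 1 long non-coding RNA (ENST00000710364, 589 nt) of the annotation used here, and those of the other vault RNAs occur in no other of 254399 annotated transcripts. Minimum free energies predicted by RNAfold were -0.356 kcal/mol per base for VTRNA1-1, -0.392 for VTRNA1-2 and VTRNA1-3 and -0.281 for VTRNA2-1. In these predicted folds 60.7% to 64.6% of the bases of the VTRNA1 paralogs were paired, and 54.7% of those of VTRNA2-1. The annotated 3′ end was a run of 4 T in VTRNA1-1 and VTRNA1-2 and of 2 T in VTRNA1-3. VTRNA2-1 did not end in T, but a run of 4 T lies upstream of its annotated end. Its energy and pairing are those of the whole annotated form of 128 nt.

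DIS3L2 RNA, which includes reads of the construct, checked the labels: the sum over its transcripts was 369, 467 and 512 RPKM (a read number scaled by transcript length and by library size) with D391N, against 11.8, 12.9 and 14.6 RPKM in controls. Values of a condition follow the order of replicates 1, 2 and 3. The HEK293 markers VIM, KRT8, KRT18 and LIN28B were listed at 15.8 to 180 RPKM, whereas PAX2 was at 1.31 to 1.93 RPKM and NEFM at 0.24 to 0.64 RPKM. By limma on gene sums, 0 of the 5 tested markers had an adjusted p under 0.05, where the share of all gene sums was 0.14%. Of the 5, 3 had an unadjusted p under 0.05, where the share was 22.7%. For KRT8, VIM and KRT18 (log2 fold changes -0.69, -0.43 and -0.27) every D391N library was below every control, as for 20.7% of all gene sums. For LIN28B (0.54) every D391N library was above every control, as for 10.5%. PTPRC, ALB, INS and CD3E, markers of other tissues, were at 0.080 to 1.77 RPKM. PTPRC, at 1.34 to 1.77 RPKM, overlapped PAX2, so PAX2 does not mark these cells by its level. The signal of a library was taken as RPKM times length, summed over the transcripts with a known length. RNAs under 200 nt took 2.43%, 0.342% and 1.52% of this signal with D391N, against 3.18%, 3.08% and 2.89% in controls. Every D391N library was below every control in this share, and D391N replicate 2 was the furthest below. The results for vault RNAs are given with and without that library. Relative to control replicate 2, depth was 0.724, 0.621 and 0.807 with D391N and 0.947 and 0.673 in control replicates 1 and 3.

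Vault RNA levels were lower in D391N-expressing cells for VTRNA1-2 and VTRNA1-3 in every library, VTRNA1-1 overlapped between the conditions, and VTRNA2-1 was without reads. None of these differences passed the threshold over all transcripts. Levels were compared as log2(RPKM + 0.1), which understates the change of low transcripts, by limma with Benjamini-Hochberg adjustment over the 54671 transcripts whose mean reached 1 RPKM. Of the 36 member transcripts 8 passed this filter, 3 of them vault RNAs. None of the 8 had an adjusted p under 0.05 in limma, where the share of all tested transcripts was 0.0604% (33 transcripts), and 3 had an unadjusted p under 0.05, where the share was 17.6%. In the same 3, VTRNA1-2, VTRNA1-3 and the coding transcript of TEP1, every D391N library was below every control, which held for 15.6% of all tested transcripts. The median log2 fold change of the 8 was -0.93, and that of all tested transcripts was -0.07.

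VTRNA1-2 had the largest log2 fold change among the 8 tested member transcripts. D391N libraries held 13.1, 2.35 and 5.55 RPKM, compared with 35.1, 18.5 and 25.2 RPKM in controls. All D391N libraries were below all controls, with means of 7.0 ± 5.52 RPKM (SD, n = 3) and 26.2 ± 8.38 RPKM (SD, n = 3). The posterior variances of the natural log level were 0.062, 0.348 and 0.140 with D391N, against 0.0174, 0.0338 and 0.0353 in controls. They correspond to about 15.6, 2.35 and 6.65 reads and to 57.1, 29.1 and 27.8 reads. The D391N libraries thus rest on few reads, and the 95% interval of D391N replicate 1 (8.04 to 21.4 RPKM) overlaps that of control replicate 2 (12.9 to 26.5 RPKM). The log2 fold change was -2.17 (standard error, SE, 0.61, limma adjusted p = 0.181). Without D391N replicate 2 it was -1.56 (adjusted p = 0.258). Without D391N replicate 1 VTRNA1-2 passed the threshold, at -2.78 (adjusted p = 0.024), as did 9.07% of all tested transcripts in that fit.

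VTRNA1-3 was the most abundant vault RNA by its mean over the 6 libraries. D391N libraries held 18.1, 8.06 and 20.1 RPKM, compared with 48.4, 45.2 and 26.1 RPKM in controls. The conditions did not overlap, although D391N replicate 3 and control replicate 3 lay close to each other, with 95% intervals of 13.8 to 29.2 RPKM and 18.5 to 36.7 RPKM. Mean levels were 15.4 ± 6.45 RPKM with D391N (SD, n = 3), against 39.9 ± 12.1 RPKM (SD, n = 3). The posterior variances, 0.0517, 0.109 and 0.0364 with D391N, against 0.013, 0.0133 and 0.0303 in controls, correspond to about 18.9, 8.65 and 27.0 reads and 76.4, 75 and 32.4 reads. The log2 fold change was -1.42 (SE 0.43, limma adjusted p = 0.197), and -1.01 without D391N replicate 2.

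VTRNA1-1, the paralog best known for its role in autophagy, did not separate the conditions. D391N libraries held 19.5, 0.53 and 10.7 RPKM, compared with 20.0, 11.4 and 14.8 RPKM in controls. D391N replicate 1 lay close to the highest control, and D391N replicate 2 held no more than the level of a transcript without reads, where 3 reads would give 2.78 RPKM. The posterior variance there was 1.63, against 0.0308 to 0.0682 in the other libraries, which correspond to about 14.1 to 32.0 reads. The log2 fold change of -1.57 (SE 1.21, limma adjusted p = 0.521) rested on that library. It was -0.05 without D391N replicate 2, and -0.83 when 3 reads were taken as the lowest level.

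VTRNA2-1 was listed at 0.29 to 0.36 RPKM in all libraries, with posterior variances of 1.38 to 1.69, which correspond to fewer than 1 read in each. It was not detectable at this depth, and 3 reads would have given between 1.37 and 1.86 RPKM. The pseudogene VTRNA3-1P, which has the box A core but not the box B core, was likewise at 0.30 to 0.52 RPKM without reads.

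**Figure D1:**
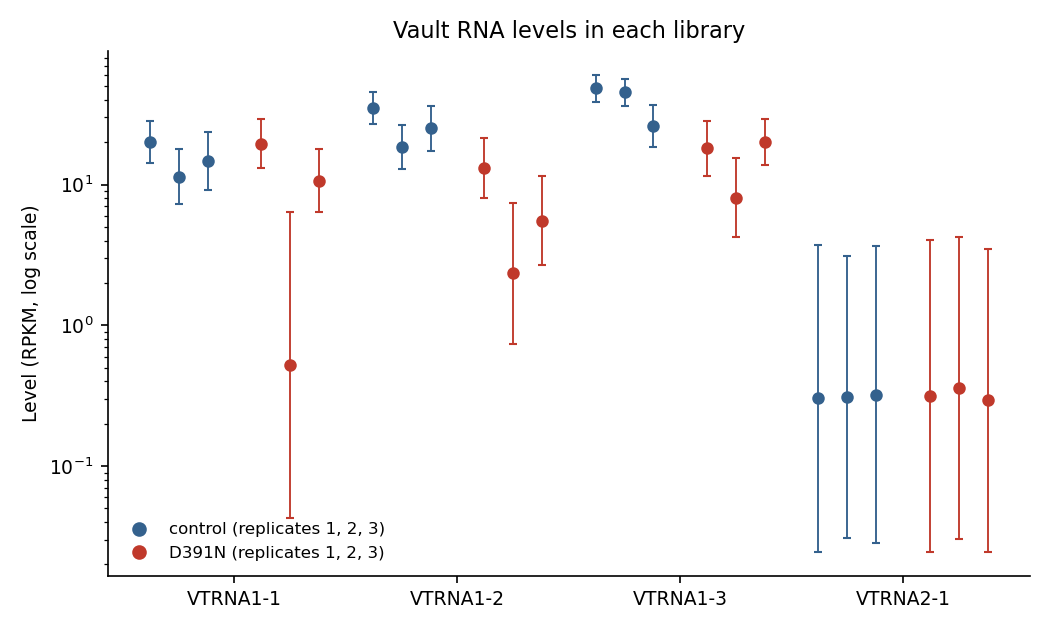
Levels of the 4 vault RNAs (RPKM, log scale) in each library, controls in blue and D391N in red with replicates 1, 2 and 3 from left to right. Points are exponentials of the posterior means and bars are 95% intervals from the posterior variance; VTRNA1-2 and VTRNA1-3 lie lower in all D391N libraries, VTRNA1-1 is at 0.53 RPKM in D391N replicate 2 alone, and VTRNA2-1 stays at 0.29 to 0.36 RPKM.

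Summed over the 4 genes, vault RNA measured 51.0, 11.3 and 36.6 RPKM with D391N, against 104, 75.4 and 66.3 RPKM in controls. The conditions did not overlap, with means of 33.0 ± 20.1 RPKM (SD, n = 3) and 81.8 ± 19.5 RPKM (SD, n = 3). The difference of mean log2 values was -1.54 (two-sided exact permutation p = 0.10, the lowest possible with 3 against 3 libraries), and -0.89 without D391N replicate 2. In bulk RNA, a lower level per cell and fewer cells with the RNA cannot be told apart.

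Short RNAs as a whole took a lower share of the signal in every D391N library than in every control. The median log2 level of tested RNAs under 200 nt minus that of longer ones was 0.26, -0.91 and -0.55 with D391N. In controls it was 0.26, 0.0008 and 0.61, so that by this measure D391N replicate 1 lay among the controls. Of the 1799 tested transcripts under 200 nt, 72.6% had a negative log2 fold change, with a median of -0.80, and every D391N library was below every control in 24.5%, beside 2 of the 3 tested vault RNAs. A lower log2 fold change than that of VTRNA1-2 was found in 19.2% of these short transcripts, than that of VTRNA1-1 in 30.2% and than that of VTRNA1-3 in 33.0%. The part that the lower share of short RNAs has in the vault RNA values was not tested.

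Y RNAs, short polymerase III transcripts of the Ro60 particle, were set beside the vault RNAs. The sum of RNY1, RNY3 and RNY4 was 3092, 214 and 621 RPKM with D391N, against 2951, 1509 and 2049 RPKM in controls. D391N replicate 1 was above every control for this sum, and it was below every control for VTRNA1-2 and VTRNA1-3, while VTRNA1-1 lay among the controls in that library. The log2 fold changes of RNY1, RNY3 and RNY4 were -1.61, -1.95 and -0.90 (limma on gene sums, adjusted p = 0.348, 0.304 and 0.519), and all overlapped between the conditions. Whether vault and Y RNAs changed differently was not tested.

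**Figure D2:**
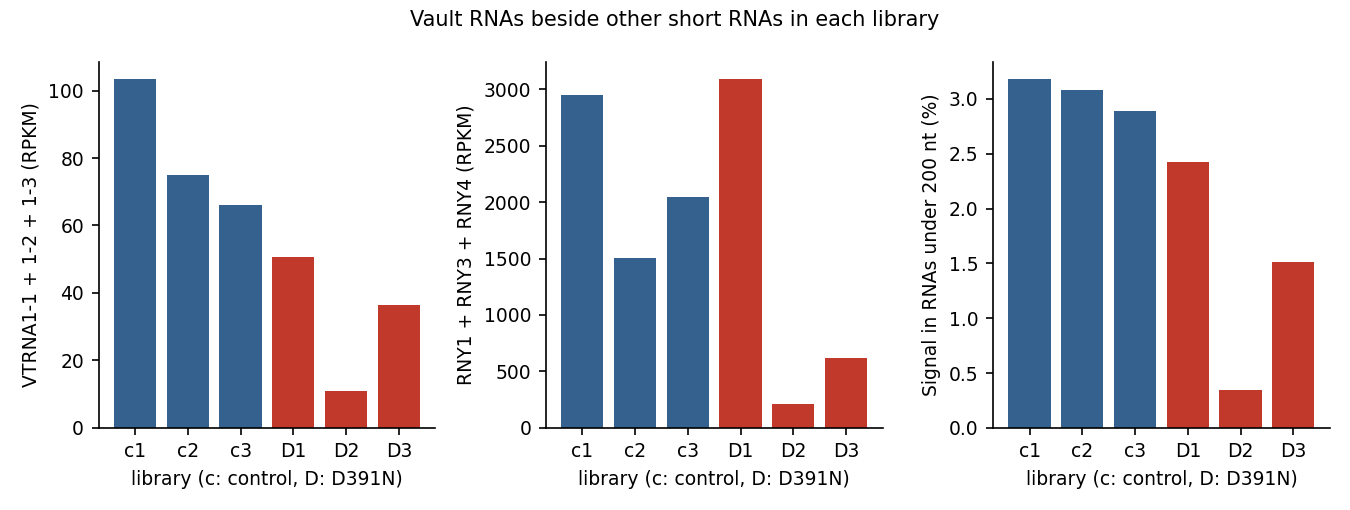
Summed RPKM of VTRNA1-1, VTRNA1-2 and VTRNA1-3 (left) and of RNY1, RNY3 and RNY4 (middle), 1 bar per library. The right panel gives the percent of the signal (RPKM times length) in RNAs under 200 nt. D391N replicate 2 is the lowest library in all panels, and D391N replicate 1 is above the controls for Y RNAs (3092 RPKM) but below them for the sum of vault RNAs.

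Ratios between paralogs within a library do not depend on the scaling between libraries, apart from the added 0.1 RPKM. That addition weighs most on the lowest levels, those of VTRNA2-1 and of VTRNA1-1 in D391N replicate 2. The log2 ratio of VTRNA1-2 to VTRNA1-1 was 0.81, 0.69 and 0.77 in the controls, a narrow range (SD 0.06). With D391N it was -0.57, 1.97 and -0.93, below the controls in replicates 1 and 3 and above them in replicate 2. In D391N replicate 2 VTRNA1-1 had no reads and VTRNA1-2 only about 2.35. The difference of means was -0.60 (exact permutation test, two-sided, p = 0.40, p = 0.60 adjusted over the 3 ratios to VTRNA1-1). Without D391N replicate 2 it was -1.51, with both remaining D391N libraries below all controls (exact permutation p = 0.20, the lowest possible with 2 against 3 libraries).

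The log2 ratio of VTRNA1-3 to VTRNA1-1 was 1.27, 1.98 and 0.82 in the controls, against -0.11, 3.70 and 0.91 with D391N. These values overlapped, and the means differed by 0.15 (exact permutation test, two-sided, p = 0.90, adjusted p = 0.90), or -0.96 without D391N replicate 2. For VTRNA2-1 to VTRNA1-1 the difference was 1.6 (exact permutation p = 0.40, adjusted p = 0.60), and 0.025 without D391N replicate 2. VTRNA2-1 was without reads in every library, and so was VTRNA1-1 in D391N replicate 2. The log2 ratio of VTRNA1-2 to VTRNA1-3 was -0.46, -1.74 and -1.84 with D391N, against -0.46, -1.29 and -0.05 in controls. With 3 libraries against 3 these exact permutation tests cannot go below p = 0.10, so that they could not reach 0.05 whatever the difference between paralogs. As a share of the 3 detected vault RNAs, VTRNA1-1 made up 38.5%, 4.81% and 29.4% with D391N, against 19.3%, 15.2% and 22.4% in controls.

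**Figure D3:**
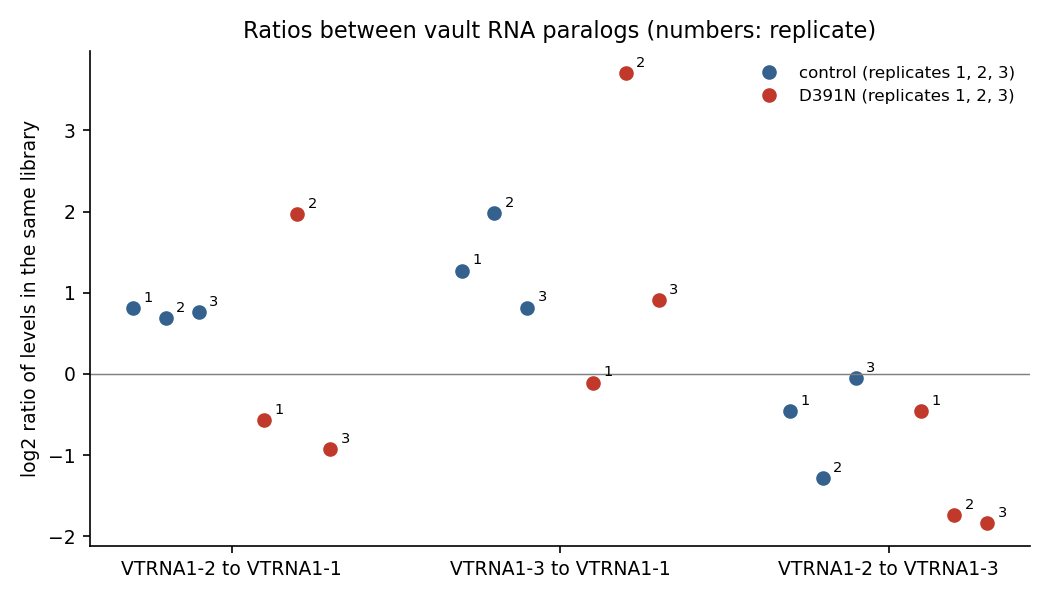
Log2 ratios of vault RNA levels within each library, controls in blue and D391N in red, with the replicate number beside each point. The ratio of VTRNA1-2 to VTRNA1-1 is at 0.69 to 0.81 in the controls and spreads from -0.93 to 1.97 in the D391N libraries. D391N replicate 2 has no reads for VTRNA1-1 and about 2.35 for VTRNA1-2.

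MVP, which forms the particle shell, was low in these cells and its RNA was mostly assigned to 2 transcripts annotated with a retained intron. The gene lies at chr16:29831715-29859360 (GRCh37, + strand), and its 5′ part overlaps the intervals of MVP-DT and PAGR1. The most abundant of its 18 transcripts was MVP-215 (ENST00000569612), a retained-intron transcript of 2091 nt at chr16:29844658-29846826. D391N libraries held 1.90, 3.10 and 1.29 RPKM, compared with 2.22, 2.41 and 2.39 RPKM in controls. The D391N libraries lay on both sides of the controls, and the log2 fold change was -0.23 (SE 0.37, limma adjusted p = 0.767), or 0.06, in the other direction, without D391N replicate 3. Of its 50-base stretches, 71.5% occur in no other MVP transcript and 10.3% in a coding one.

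The full-length coding transcripts of MVP were listed lower. MVP-201 (2798 nt) was at 0.08 to 0.41 RPKM and MVP-202 (2925 nt) at 0.05 to 0.27 RPKM over the 6 libraries, with posterior variances of 0.56 to 1.51, so that their levels were hardly determined. Reads matching more than 1 isoform were split between these by BitSeq. By their variance, which also holds the uncertainty of this split, 13 of the 18 MVP transcripts were under 3 reads in each library. The other tested transcript, the retained-intron transcript MVP-214 (ENST00000568068), measured 1.26, 0.45 and 0.32 RPKM with D391N, against 0.57, 1.15 and 2.62 RPKM in controls. Its conditions overlapped, and the posterior variances of D391N replicates 2 and 3 were 0.901 and 0.820, against 0.0911 in D391N replicate 1. Of its 50-base stretches 84.0% also occur in a coding transcript. These variances therefore also hold the division of shared reads and give no read number. Its log2 fold change was -0.96 (limma adjusted p = 0.508), and it ranged from -1.47 without D391N replicate 1 to -0.43 without control replicate 3. It was -0.28 when 3 reads were taken as the lowest level. By the variances that level was 1.24 and 0.794 RPKM in D391N replicates 2 and 3 but 0.345 RPKM in D391N replicate 1. This setting therefore cannot show whether the fold change rests on few reads. The remaining 16 were at 0.03 to 0.91 RPKM.

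The sum of all MVP transcripts was 5.11, 5.33 and 2.89 RPKM with D391N, against 4.99, 5.13 and 8.09 RPKM in controls. The conditions overlapped, with means of 4.44 ± 1.35 RPKM (SD, n = 3) and 6.07 ± 1.75 RPKM (SD, n = 3). The log2 fold change of the sum was -0.46 (SE 0.31, limma adjusted p = 0.418 over 20714 gene sums), and -0.18 without D391N replicate 3 and -0.23 without control replicate 3. Set beside the RNA of the shell protein, the log2 ratio of summed vault RNAs to the MVP sum was 3.30, 1.07 and 3.62 with D391N, against 4.35, 3.85 and 3.02 in controls. These overlapped, with a difference of -1.08 (two-sided exact permutation test, p = 0.40) that was -0.28 without D391N replicate 2. The MVP sum is of RNA, mostly assigned to the 2 retained-intron transcripts, and does not give the level of the shell protein.

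TEP1, which binds vault RNA and was also found with telomerase, had a lower full-length transcript and a higher short transcript in every library of D391N-expressing cells, with no call at the threshold. The gene lies at chr14:20833826-20881660 (GRCh37, - strand). TEP1-201 (ENST00000262715), the coding transcript of 10775 nt and 55 exons, measured 1.14, 0.99 and 0.83 RPKM with D391N, against 1.97, 1.84 and 1.95 RPKM in controls. Each condition was tight and the 2 did not overlap, with means of 0.985 ± 0.153 RPKM (SD, n = 3) and 1.92 ± 0.0747 RPKM (SD, n = 3). The log2 fold change was -0.91 (SE 0.31, limma adjusted p = 0.222), and it lay between -1.0 and -0.80 when each library was left out in turn. With pseudocount 1 it was -0.56 (adjusted p = 0.209).

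TEP1-203 (ENST00000553365), a transcript of 2967 nt and 9 exons annotated for nonsense-mediated decay, ends at the same 3′ position as TEP1-201. D391N libraries held 0.83, 1.80 and 1.14 RPKM, compared with 0.23, 0.63 and 0.24 RPKM in controls. All D391N libraries were above all controls, opposite to TEP1-201. If counting alone made the variances, they would correspond to about 17.2, 50.7 and 35.4 reads with D391N, against 0.73, 9.35 and 1.81 reads in controls. By these numbers 1 read would be worth 0.183 RPKM in control replicate 1 and 0.0319 RPKM in D391N replicate 3. The depth of these libraries differs by much less, so these numbers are not read counts and also hold the uncertainty of dividing reads between isoforms. The 95% interval of D391N replicate 1 (0.52 to 1.33 RPKM) overlaps those of control replicates 1 (0.041 to 1.30 RPKM) and 2 (0.34 to 1.17 RPKM). Its mean was under the filter of 1 RPKM, and with a filter of 0.1 RPKM the log2 fold change was 1.59 (limma adjusted p = 0.217). Of its 50-base stretches 96.8% also occur in a coding transcript, so that most of its reads could be divided between the 2. As a share of the TEP1 sum it made up 28.0%, 45.7% and 34.0% with D391N, against 5.79%, 14.4% and 5.37% in controls.

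The sum over all 11 TEP1 transcripts differed less than TEP1-201. It was 2.97, 3.94 and 3.37 RPKM with D391N, against 3.99, 4.36 and 4.45 RPKM in controls. The D391N libraries were below the controls, D391N replicate 2 by little, and the log2 fold change was -0.32 (SE 0.19, limma adjusted p = 0.348). The other 9 transcripts were not tested. By their variance, which also holds the division of shared reads, 7 of the 11 were under 3 reads in each library.

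PARP4, the ADP-ribosylating enzyme of the particle, was the most abundant of the 3 protein genes. The gene lies at chr13:24995069-25086916 (GRCh37, - strand), an interval that the annotated gene TPTE2P6 overlaps in part. Its coding transcript PARP4-201 (ENST00000381989, 5437 nt) measured 17.1, 20.0 and 21.5 RPKM with D391N, against 17.6, 17.4 and 16.0 RPKM in controls. D391N replicates 2 and 3 were above the controls and replicate 1 was among them. Mean levels were 19.5 ± 2.20 RPKM with D391N (SD, n = 3), against 17.0 ± 0.868 RPKM (SD, n = 3). The log2 fold change was 0.19 (SE 0.22, limma adjusted p = 0.672).

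The retained-intron transcript PARP4-203 (ENST00000484989) measured 2.45, 1.27 and 1.27 RPKM with D391N, against 2.26, 2.15 and 2.75 RPKM in controls. D391N replicates 2 and 3 were lower and replicate 1 was among the controls (log2 fold change -0.56, limma adjusted p = 0.436). The third transcript was at 0.07 to 0.37 RPKM and was not tested. The PARP4 sum had a log2 fold change of 0.13 (SE 0.13, limma adjusted p = 0.585).

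**Figure D4:**
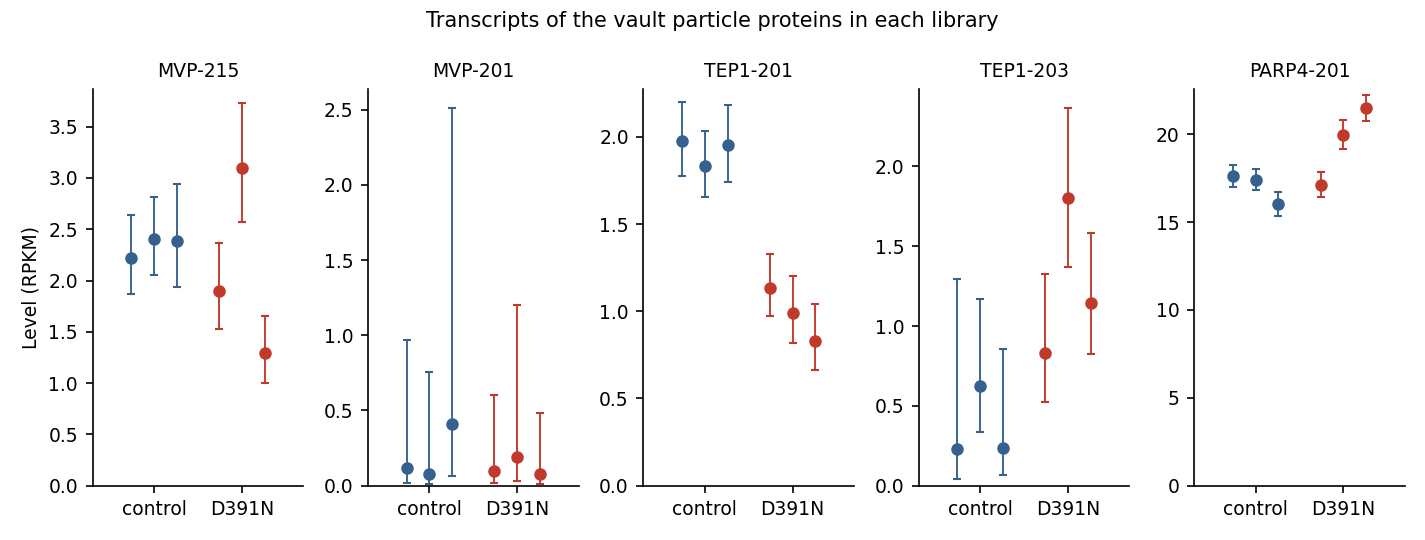
Levels (RPKM, linear axes from 0, a separate scale in each panel) of MVP-215, MVP-201, TEP1-201, TEP1-203 and PARP4-201 in each library, replicates 1, 2 and 3 from left to right, with 95% intervals from the posterior variance. TEP1-201 is at 1.84 to 1.97 RPKM in the controls and 0.83 to 1.14 RPKM in the D391N libraries, TEP1-203 shows the opposite order, and MVP-201 has intervals that reach close to 0.

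No gene sum of the members passed the threshold, where 0.14% of all gene sums did (29 of 20714). At an unadjusted p under 0.05 there were 2 of the 6 tested members, VTRNA1-2 and VTRNA1-3, where the share of all gene sums was 22.7%. For these 2 and TEP1 every D391N library was below every control, as for 20.7% of all gene sums. Centring each library on its median moved the median log2 fold change of all gene sums from -0.09 to 0.13. It moved every gene sum by the same amount, and MVP was then at -0.24, TEP1 at -0.10 (adjusted p = 0.785) and PARP4 at 0.35. Relative to the median of all gene sums MVP and TEP1 were lower and PARP4 was higher, none of them past the threshold.

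**Figure D5:**
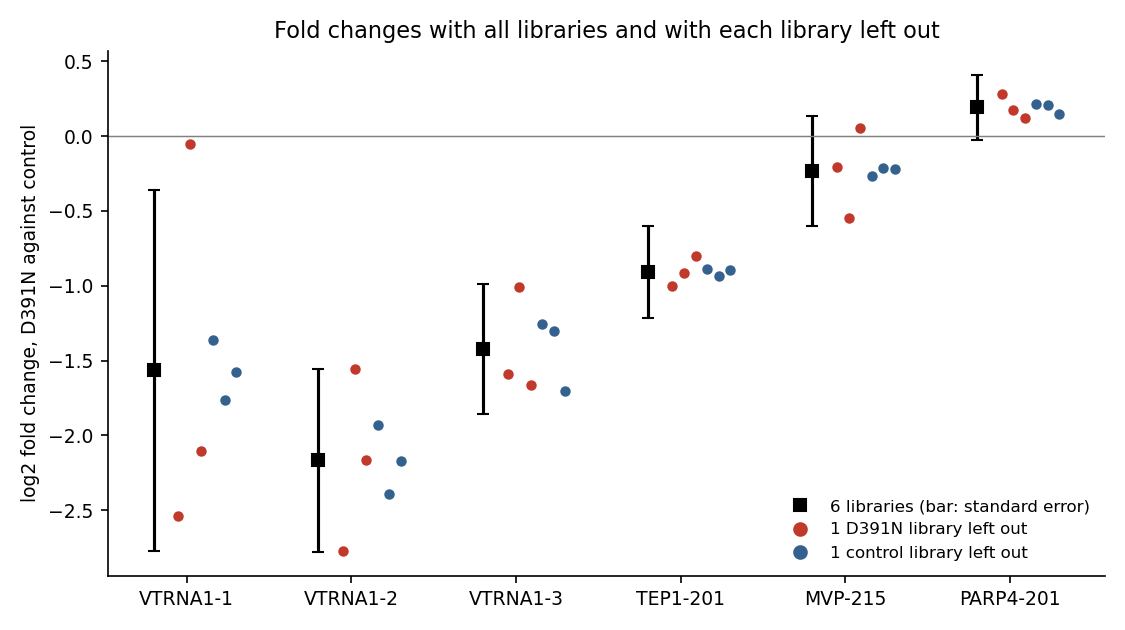
Log2 fold changes, D391N against control, of the 3 detected vault RNAs and of the most abundant transcript of each protein gene. Black squares are the fit of all libraries with its standard error, and small points leave out 1 library each (D391N replicates 1, 2 and 3 in red, then control replicates 1, 2 and 3 in blue). VTRNA1-1 moves from -1.57 to -0.05 without D391N replicate 2, while TEP1-201 stays between -1.0 and -0.80.

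Of 7 genes whose products modify, bind or process vault RNAs, 0 passed the threshold in limma (0.14% of all gene sums) and 2 had an unadjusted p under 0.05 (22.7% of all gene sums). Their median log2 fold change was 0.41, beside -0.09 for all gene sums, with 6 positive and 1 negative. DICER1, which cuts vault RNAs into small RNAs, measured 158, 132 and 112 RPKM with D391N, against 98.6, 84.8 and 78.8 RPKM in controls (log2 fold change 0.61, adjusted p = 0.140). EIF2AK2, which encodes the kinase PKR, was at 73.4, 85.3 and 68.9 RPKM and at 58.3, 55.9 and 56.4 RPKM in the same order (log2 fold change 0.41, adjusted p = 0.167). Both were higher in every D391N library than in every control, as were 10.5% of all gene sums. The others overlapped. NSUN2, the methyltransferase of vault RNA cytosines, had a log2 fold change of 0.61 (adjusted p = 0.276), SSB, the La protein that binds the 3′ ends of polymerase III transcripts, 0.85 (adjusted p = 0.261), and SRSF2, a splicing factor that binds VTRNA1-1, -0.23 (adjusted p = 0.471). DUSP11, a phosphatase of 5′ triphosphate ends, was at 0.04 and SQSTM1, the autophagy receptor bound by VTRNA1-1, at 0.07.

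Since TEP1 was also found with telomerase, the telomerase genes were set beside it. Of 7 genes 6 were tested, 0 passed the threshold in limma (0.14% of all gene sums) and 2 had an unadjusted p under 0.05 (22.7% of all gene sums). The median log2 fold change was -0.20, beside -0.09 for all gene sums. TERC, the telomerase RNA, measured 1.05, 1.69 and 1.76 RPKM with D391N, against 3.23, 3.17 and 5.13 RPKM in controls. All D391N libraries were below all controls (log2 fold change -1.30, adjusted p = 0.104), as for 20.7% of all gene sums. The same order held for NHP2. For GAR1 every D391N library was above every control, as for 10.5% of all gene sums. Of the proteins that bind it, NHP2 had a log2 fold change of -0.51 (adjusted p = 0.181), NOP10 -1.02 (adjusted p = 0.245), GAR1 0.36 (adjusted p = 0.232), DKC1 0.10 and WRAP53 0.13. TERT, the reverse transcriptase, was under the filter at 0.37 to 0.88 RPKM, with every D391N library below every control.

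As a description over the 6 libraries, which share the depth and the short RNA content of each library, the gene sums most like VTRNA1-1 were RNU6-1225P, RNU6-820P and RN7SKP185 (Pearson r of log2 levels 0.994, 0.993 and 0.993). All 3 are annotated as copies of U6 or 7SK, which are polymerase III RNAs, and had their lowest level in D391N replicate 2, at 3.73, 2.20 and 2.21 RPKM. Those most like MVP were EML2, MYO15B and FUT11 (Pearson r 0.997, 0.995 and 0.994), which had their lowest level in D391N replicate 3 and their highest in control replicate 3, as MVP did.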

How the data were processed

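RNA-seq of D391N-expressing cells (3 libraries) and control cells (3 libraries) was analysed. RNA depleted of rRNA was sequenced, and the authors used cutadapt for trimming, Segemehl for alignment to Ensembl transcripts of GRCh38 and BitSeq for transcript levels. Versions of these tools are not given in the sources used here. The deposited values are, for each transcript and library, a natural log RPKM (the posterior mean) with a posterior variance. RPKM was taken as the exponential of the mean.

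Transcripts were assigned to the 7 genes by gene identifier. Of the 63190 gene identifiers, 88.2% had a symbol, and 90.2% of the 207167 transcripts had a length, in a GENCODE annotation of GRCh37. The table itself holds identifiers and no coordinates. Log2(RPKM + 0.1) was compared by limma 3.58.1 in R 4.3.3, with moderated variances that follow a trend in level, over transcripts, or gene sums, with a mean of at least 1 RPKM, with Benjamini-Hochberg adjustment over all tested and a threshold of 0.05. Single values per library were compared by two-sided exact permutation tests. The number of reads behind a value was estimated from the posterior variance, which is exact only where a transcript shares no reads with another. It covers counting and assignment error only. The 95% intervals of levels come from the same variance. Total read numbers are not given in the table, and relative depth was taken from the listed level of transcripts without reads. The limma procedure was tested on simulated data, with values drawn independently for each transcript and library. Such data hold no shift shared by the short RNAs of a library, so that the simulation does not cover it. Sequences were folded with RNAfold 2.7.2. Python 3.11.15 was used for tables and plots, with pandas 2.3.3, numpy 2.4.6, scipy 1.17.1, Biopython 1.88 and matplotlib 3.10.9.

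The members and lists were chosen with earlier results of these data known. The genes named are each tested transcript of the 7 genes, every vault RNA and listed pseudogene, the most abundant transcript and the sum of each protein gene, the genes of the partner and telomerase lists, Y RNAs, DIS3L2, and the 3 genes most like VTRNA1-1 and most like MVP across the libraries. MVP-201, MVP-202 and TEP1-203 were named after their values were seen. Alternatives were a replicate block, other pseudocounts, scalings and filters on low values, limma without trend and each library left out. Setting values under 3 reads to the level of 3 reads was added after seeing the data. Same-numbered libraries had correlations of 0.087, 0.055 and -0.11 in their deviations from the group means, so the replicate numbers were not taken to pair the libraries. The study’s CLIP and RIP data were not used.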

Additional observations from a re-analysis of the deposited data

How the results depend on the processing

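The alternatives changed few results on the members. The number of member transcripts past the threshold was 0 with every setting except without D391N replicate 1, where VTRNA1-2 passed (-2.78, adjusted p = 0.024), so that it ranged from 0 to 1 with 1 library left out. The log2 fold changes of VTRNA1-2 and VTRNA1-3 stayed negative in all 16 alternatives run for each, from -2.78 to -1.56 and from -1.70 to -1.01, and that of VTRNA1-1 ranged from -2.54 to -0.05. TEP1-201 ranged from -1.0 to -0.56 over its 15 alternatives, with -0.70 under quantile normalization. With 1 library left out, MVP-215 ranged from -0.55 to 0.056, and the ratio of VTRNA1-3 to VTRNA1-1 from -0.96 to 0.95, with -0.12 without control replicate 3. That ratio was -0.20 with pseudocount 1, and the cause of these turns of sign was not tested.

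The number of all transcripts past the threshold, 33, was 142 with pseudocount 1, 17 with a mean of at least 5 RPKM, 18 with no filter, 52 without trend and 79 with 3 reads as the lowest level, and 2 to 4961 with 1 library left out. The 29 gene sums became 16 and 61 with pseudocounts 0.01 and 1, 6 with at least 5 RPKM, 18 with no filter, 17 with quantile normalization and 14 with median centring, and 2 to 2261 with 1 library left out. The cause of these changes was not tested. With the replicate number as a block, 7 transcripts and 2 gene sums passed and 0 members. Under that block VTRNA1-2 had an adjusted p of 0.191, VTRNA1-3 of 0.267 and TEP1-201 of 0.335. The block changed no call of a member, and the libraries share only a number.

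Read numbers limit these values: VTRNA1-1 and VTRNA1-2 had fewer than 3 reads in D391N replicate 2 and VTRNA2-1 in every library. By their variance 13 of the 18 MVP and 7 of the 11 TEP1 transcripts were under 3 reads in every library. Their variance also holds the division of shared reads, so these are uncertain levels and not read counts. Levels of MVP and TEP1 transcripts depend on how shared reads were divided.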
